A study of Homo sapiens with 9 samples.

Results

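The genes described here are 10 heat shock proteins of the cytosol and the mitochondria: HSPA1A, HSPA1B, HSPA8, HSPH1, DNAJB1, HSP90AA1, HSPB1, BAG3, HSPD1 and HSPE1. They are the chaperones usually listed as heat shock factor 1-type genes, they were matched to the count tables by symbol, and they are 10 of the 60880 gene IDs counted. All 10 have an ID in the count tables, and 8 had enough counts for a test. HSPA1A and HSPA1B did not.

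RNA was sequenced from SNU5, an established line of human gastric carcinoma cells, after 24 h of treatment in 3 groups of 3 libraries each, 9 in all. The NR group received AuNR-PEG-Ab (gold nanorods carrying ramucirumab through a polyethylene glycol linker), the SP group AuSP-PEG-Ab (gold nanospheres with the same linker and antibody) and the Ab group ramucirumab alone, an antibody against the receptor VEGFR2. All 3 groups were thus exposed to the antibody, at 8 μg/mL, and an untreated group or gold without antibody was not analysed here. One cell line was used, and the labels do not say whether libraries came from separate cultures, although the study calls the replicates biological, so the p-values measure only the spread between these libraries. The NR libraries held 25735410, 13863155 and 15943980 counts, the SP libraries 21682836, 22914759 and 20601906, and the Ab libraries 19566064, 26318227 and 21031024. The limit set by a count of 0, taken as 3 counts, was 0.114 to 0.216 counts per 1000000 (CPM) and covers counting error only. All levels below are CPM scaled between libraries by TMM.

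Heat shock proteins hold unfolded proteins in solution and help them fold. In the cytosol, HSP70 proteins such as HSPA8 and the inducible HSPA1A and HSPA1B bind unfolded chains, J-domain proteins such as DNAJB1 deliver the chains to them, and nucleotide exchange factors such as BAG3 and HSPH1 release them, while HSP90AA1 acts on proteins later in folding and HSPB1 holds clients without using ATP. HSPD1 and HSPE1 form the folding chamber of mitochondria and share a bidirectional promoter. When unfolded proteins accumulate, heat shock factor 1 leaves its complex with chaperones, forms a trimer and binds heat shock elements, runs of the letters GAA in alternating orientation, in the promoters of these genes.

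The promoters were read first, since these elements are what the genes are known to share. In RefSeq promoters (GRCh38.p14), the 250 bases before each start were searched on both strands for a pair of units, GAANNTTC or TTCNNGAA, and for a run of 3 units, GAANNTTCNNGAA or TTCNNGAANNTTC, where a run of 3 also holds pairs. A pair stood in at least one promoter of 7 of the 10 genes, compared with 11.6% of 35116 promoters, and a run of 3 in those of HSP90AA1, HSPA8 and HSPD1, compared with 0.441%. Genes with several listed starts have several promoters and so more chances of a match. The stretches below were chosen to set matches of genes that rose (HSPB1 and HSPA8) beside those of the one gene that fell (DNAJB1) and of genes with a run of 3 that did not pass a test (HSPD1 and HSP90AA1). HSPE1, which also rose, lies on the other side of the HSPD1 stretch. Capitals mark the matches, all read 5′ to 3′ on the gene's strand. The stretches were placed on GRCh37 by an exact match, the only one in a window around the gene.

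HSPB1, chr7:75931788-75931835, plus strand: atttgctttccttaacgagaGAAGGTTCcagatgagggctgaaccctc
HSPA8, chr11:122933042-122933094, minus strand: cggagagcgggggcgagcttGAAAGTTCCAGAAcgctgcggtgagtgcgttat
HSPA8, chr11:122932867-122932919, minus strand: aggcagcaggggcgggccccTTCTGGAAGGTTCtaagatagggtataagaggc
DNAJB1, chr19:14629259-14629306, minus strand: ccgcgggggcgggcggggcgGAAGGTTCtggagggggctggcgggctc
DNAJB1, chr19:14629229-14629276, minus strand: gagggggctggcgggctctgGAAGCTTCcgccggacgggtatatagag
HSPD1, chr2:198364772-198364814, minus strand: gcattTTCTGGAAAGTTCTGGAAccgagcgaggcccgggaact
HSP90AA1, chr14:102553422-102553489, minus strand: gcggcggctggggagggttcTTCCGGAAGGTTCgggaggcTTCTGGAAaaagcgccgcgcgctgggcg

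The HSPB1 pair began at -182, counted from the start. The runs of 3 units of HSPA8 began at -230 and -55, and the DNAJB1 pairs at -77 and -47 from the second of its 3 listed starts. The HSPD1 run began at -245 from the second of 2 starts and held 3 overlapping pairs, and the HSP90AA1 run began at -88 from the second of 2 starts. HSPA1A and HSPA1B each had a single pair, at -106 and -105. No match to these letters lay in this window of BAG3, HSPE1 or HSPH1. The HSPD1 run is however also upstream of HSPE1, on the opposite strand, 55 to 72 bases before the first HSPE1 start annotated by GENCODE on GRCh37 and 294 to 311 bases before the RefSeq start, beyond the 250 bases searched. It therefore belongs to the stretch between both genes and is not counted for HSPE1 among the 7. A match is a description of letters and not a measured binding site.

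Before the results, the libraries were compared within each group. Pairs with Ab replicate 1 were the least alike, with a chi-square per gene of 7.44 and 6.95 against Ab replicates 2 and 3. The latter gave 2.17 between them, pairs of NR libraries 1.84 to 3.71 and pairs of SP libraries 3.03 to 5.16. This measure can also grow with the number of counts, which was lowest in NR replicates 2 and 3, so the groups are not ranked by it. Ab replicate 1 stood apart within its group, and results that rest on it are given with and without it. Of the 10 epithelial markers checked against the cell label, KRT19 and VIL1 had at most 3 counts in every library, and KRT8, a keratin of simple epithelia, was the most abundant at 643 to 2020 CPM. Summed over the list, the epithelial markers reached 2554 to 2599 CPM in NR, 2601 to 2727 CPM in SP and 1012 to 1090 CPM in Ab.

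Antibody carried on gold nanorods was compared with the antibody alone to ask whether this chaperone set was expressed at another level. Of the 8 genes tested in NR against Ab, 5 passed an adjusted p of 0.05: HSPB1, HSPA8, HSPE1 and BAG3 were higher, DNAJB1 was lower, and HSP90AA1, HSPD1 and HSPH1 did not pass. Of all 15009 genes tested in this comparison 72.7% passed, 36.4% higher and 36.4% lower, so that 5 of 8 is no larger a share than among all genes. Only HSPB1 also changed at least 2-fold, against 22.7% of all genes. The median log2 fold change was 0.22 over the 8 genes and -0.0055 over all genes. Tests were edgeR's quasi-likelihood tests with Benjamini-Hochberg adjustment over all genes, on the 6 libraries compared, and this holds for every adjusted p below. In bulk RNA such as this, fewer cells expressing a gene and less RNA per cell cannot be told apart.

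HSPB1 (ENSG00000106211, GRCh37 chr7:75931990-75933612, plus strand), the small heat shock protein also known as HSP27, stood furthest from the antibody group. Its level was 406, 392.3 and 383.7 CPM in NR and 413.6, 402.1 and 385.8 CPM in SP, but 112.3, 109.7 and 108.4 CPM in Ab. The lowest nanoparticle library was thus above the highest Ab library by more than the whole range within any group. The mean was 394 ± 11.2 CPM in NR, 400.5 ± 14 CPM in SP and 110.1 ± 1.97 CPM in Ab (SD, n = 3 each). The change was 3.59-fold in NR against Ab, with a 95% interval of 3.36 to 3.82, a log2 fold change of 1.84 (SE 0.045) and an edgeR adjusted p of 1.42e-23. No other annotated gene shares exon bases with HSPB1, and its 2 pseudogenes with an ID held at most 0.695% as many counts.

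HSPA8 (ENSG00000109971, chr11:122928197-122933938, minus strand), the constitutive HSP70 of the cytosol, had the highest level per length of annotated exon sequence among the 8 genes tested. It was read at 1575, 1566 and 1544 CPM in NR, at 1579, 1495 and 1506 CPM in SP and at 1052, 1066 and 1066 CPM in Ab. The Ab libraries lay close together and below all 6 nanoparticle libraries. The level in NR was 1.48-fold that in Ab (95% interval 1.4 to 1.56, log2 fold change 0.56, SE 0.038, edgeR adjusted p = 1.38e-13). Other annotated genes share 15.1% of its exon bases, and its 17 pseudogenes held at most 0.218% as many counts.

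BAG3 (ENSG00000151929, chr10:121410892-121437331, plus strand), which couples HSP70 and small heat shock proteins to autophagy, differed by less. Its values were 66.87, 64.29 and 65.89 CPM in NR, 72.31, 62.79 and 63.82 CPM in SP and 55.24, 53.94 and 52.64 CPM in Ab. No nanoparticle library overlapped the Ab libraries, but the gap between the nearest ones was smaller than the range of the SP libraries, where replicate 1 was high. The change in NR against Ab was 1.22-fold (95% interval 1.13 to 1.32, log2 fold change 0.29, SE 0.056, edgeR adjusted p = 4.55e-05).

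DNAJB1 (ENSG00000132002, chr19:14625581-14671203, minus strand), the J-domain partner of HSP70 also known as HSP40, was the only gene of the set that fell with all libraries in the test. It was read at 243.3, 231.6 and 227.4 CPM in NR, at 219.8, 231.6 and 237.5 CPM in SP and at 291.2, 273.8 and 279 CPM in Ab. All Ab libraries were above all nanoparticle libraries. The level in NR was 0.835 times that in Ab, with a 95% interval of 0.784 to 0.889 (log2 fold change -0.26, SE 0.044, edgeR adjusted p = 7.36e-06). Other genes overlap 6.85% of its exon bases.

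HSPE1 (ENSG00000115541, chr2:198364864-198368173, plus strand), the lid of the mitochondrial chamber, gave the fewest counts of the 8 genes tested. Its levels were 6.617, 6.242 and 5.865 CPM in NR, 7.053, 7.202 and 5.802 CPM in SP and 4.061, 3.798 and 4.896 CPM in Ab. Both nanoparticle groups lay above Ab, NR lay within the range of SP, and the change in NR against Ab was 1.48-fold (95% interval 1.19 to 1.85, log2 fold change 0.57, SE 0.16, edgeR adjusted p = 0.00185). This value is uncertain: HSPE1 has 26 pseudogenes with an ID, which together held up to 60.6% as many counts as HSPE1, and it shares 17.9% of its exon bases with HSPD1 and the read-through gene HSPE1-MOB4, which had 0 counts in all 9 libraries. How reads that fit several copies were counted is not given in the sources used here.

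**Figure D1:**
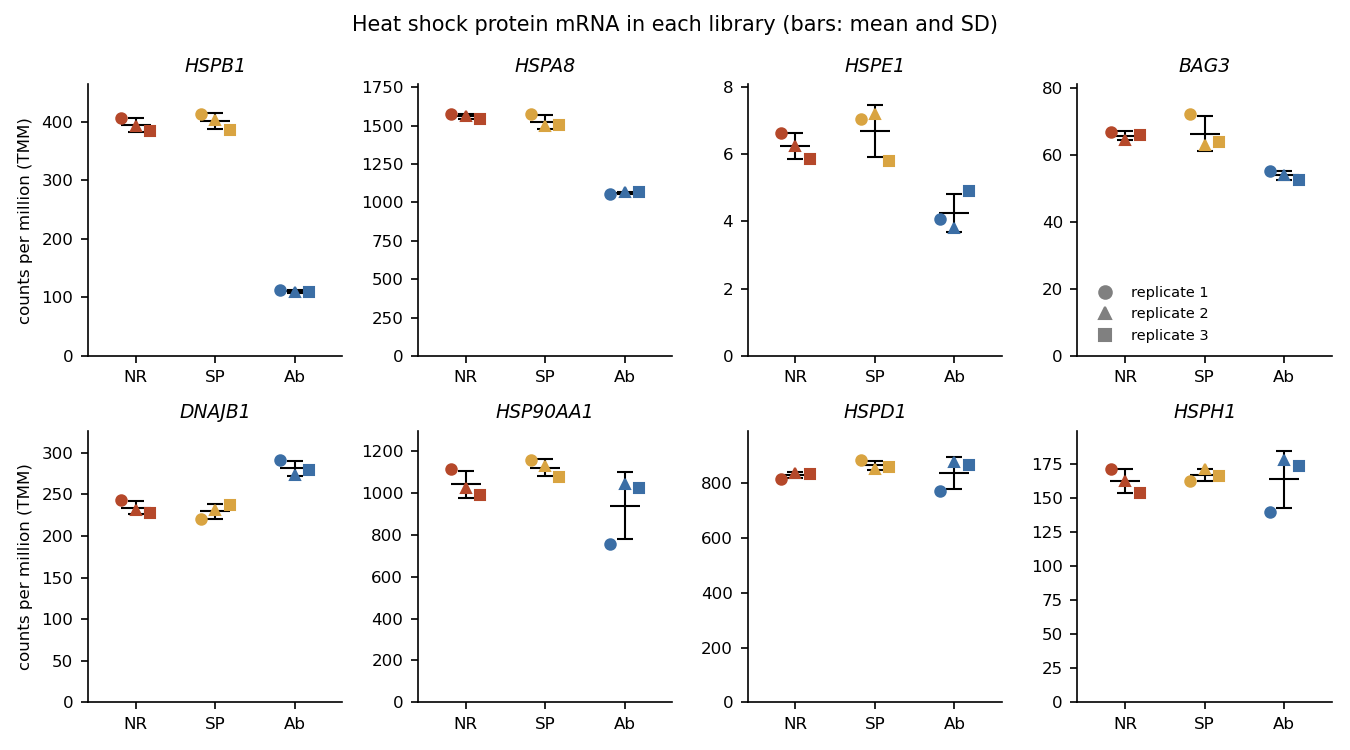
Each panel plots one heat shock protein's CPM (TMM-scaled, axis from 0) in the 3 libraries of the NR, SP and Ab groups, with symbols for the replicates and bars for the mean and SD. The nanoparticle libraries sit apart from Ab in the top row and for DNAJB1, while Ab replicate 1 is the lowest point for HSP90AA1, HSPD1 and HSPH1.

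The remaining genes did not pass, and in each of them Ab replicate 1 was below the other 8 libraries. HSP90AA1 (ENSG00000080824, chr14:102547079-102606036, minus strand), the stress-inducible cytosolic HSP90, was at 1112, 1024 and 987.7 CPM in NR, 1156, 1126 and 1077 CPM in SP and 754.9, 1040 and 1023 CPM in Ab. The NR libraries overlapped Ab replicates 2 and 3, and the log2 fold change was 0.15 (95% interval -0.26 to 0.57, edgeR adjusted p = 0.421). Without Ab replicate 1 the value was 0.014 (95% interval -0.069 to 0.098), so that the width of the interval came from that library.

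HSPD1 (ENSG00000144381, chr2:198351308-198381461, minus strand), the mitochondrial chamber itself, was at 816.4, 836.4 and 835.3 CPM in NR, 884.3, 851.3 and 859.5 CPM in SP and 771.5, 876.9 and 866.2 CPM in Ab. The NR libraries fell between Ab replicate 1 and the other Ab libraries. The log2 fold change in NR against Ab was -0.012 (95% interval -0.10 to 0.08, edgeR adjusted p = 0.818), and without Ab replicate 1 it was -0.072 with an adjusted p of 0.0413, which passes as lower.

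HSPH1 (ENSG00000120694, chr13:31709110-31736525, minus strand), the large HSP110 exchange factor, was at 170.8, 162.2 and 153.4 CPM in NR, 162.3, 171 and 165.7 CPM in SP and 139.6, 177.6 and 173.4 CPM in Ab. The 3 groups overlapped. The log2 fold change in NR against Ab was -0.0094 (95% interval -0.23 to 0.21, edgeR adjusted p = 0.935) and, without Ab replicate 1, -0.11 with an adjusted p of 0.0209. Without that library 7 of the 8 genes thus passed, 4 higher and 3 lower, beside 72.1% of all genes.

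**Figure D2:**
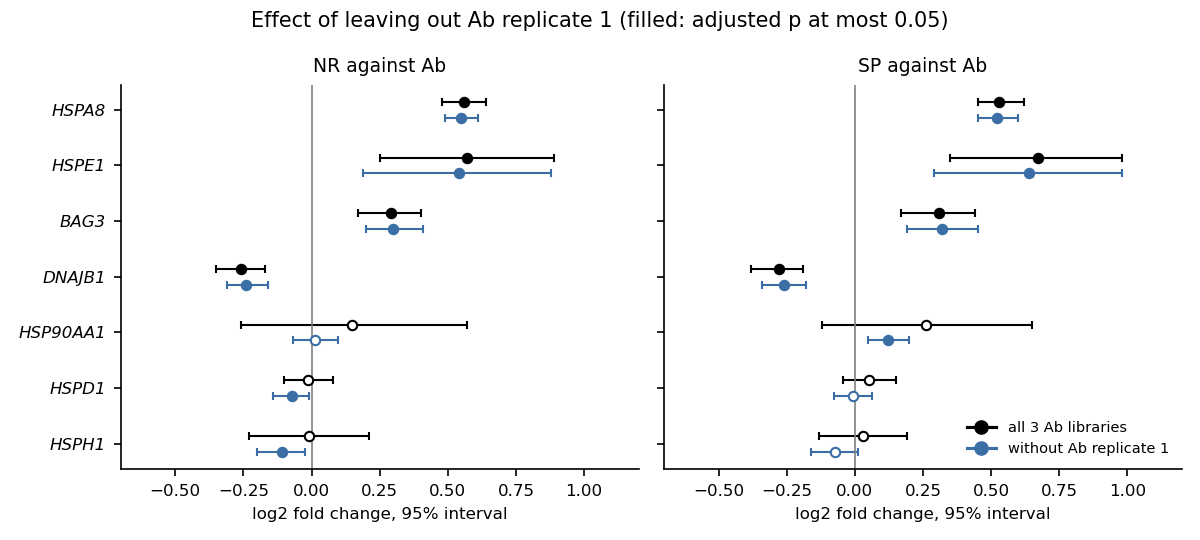
Log2 fold changes with 95% intervals (x axis) of 7 heat shock proteins against the Ab group, with all 3 Ab libraries (black) and without Ab replicate 1 (blue), where filled points have an adjusted p of at most 0.05. HSPB1 lies off the scale and is left out. The interval of HSP90AA1 narrows from -0.26 to 0.57 to -0.069 to 0.098 in NR against Ab, while HSPA8, HSPE1, BAG3 and DNAJB1 hardly move.

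Nanospheres were compared with the antibody alone in the same way, against the same Ab libraries, so the comparisons are not independent of each other. Of 15068 genes tested 73% passed, 36.4% higher and 36.6% lower, and 23.2% also changed at least 2-fold. In the heat shock set 5 of 8 passed, 4 higher and 1 lower, and HSPB1 alone changed at least 2-fold. HSPB1 was 3.66-fold higher in SP than in Ab (95% interval 3.42 to 3.91, log2 fold change 1.87, SE 0.047, edgeR adjusted p = 7.52e-23). HSPA8 was 1.45-fold higher (95% interval 1.36 to 1.53, edgeR adjusted p = 4.4e-12). These are the genes with the most counts among those that rose.

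BAG3 was 1.24-fold higher in SP than in Ab (95% interval 1.13 to 1.35, edgeR adjusted p = 0.000112), and HSPE1, with the same uncertainty as above, was 1.59-fold higher (95% interval 1.28 to 1.98, edgeR adjusted p = 0.000331). DNAJB1 was at 0.821 times the Ab level (95% interval 0.769 to 0.877, edgeR adjusted p = 3.62e-06). The other members had log2 fold changes of 0.26 for HSP90AA1 (95% interval -0.12 to 0.65, edgeR adjusted p = 0.169), 0.053 for HSPD1 (adjusted p = 0.307) and 0.031 for HSPH1 (adjusted p = 0.727). Without Ab replicate 1, HSP90AA1 passed at a log2 fold change of 0.12 (SE 0.036, edgeR adjusted p = 0.00478), while HSPD1 and HSPH1 were at -0.0074 and -0.074 and did not pass. The count was then 5 higher and 1 lower, beside 71.9% of all genes.

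**Figure D3:**
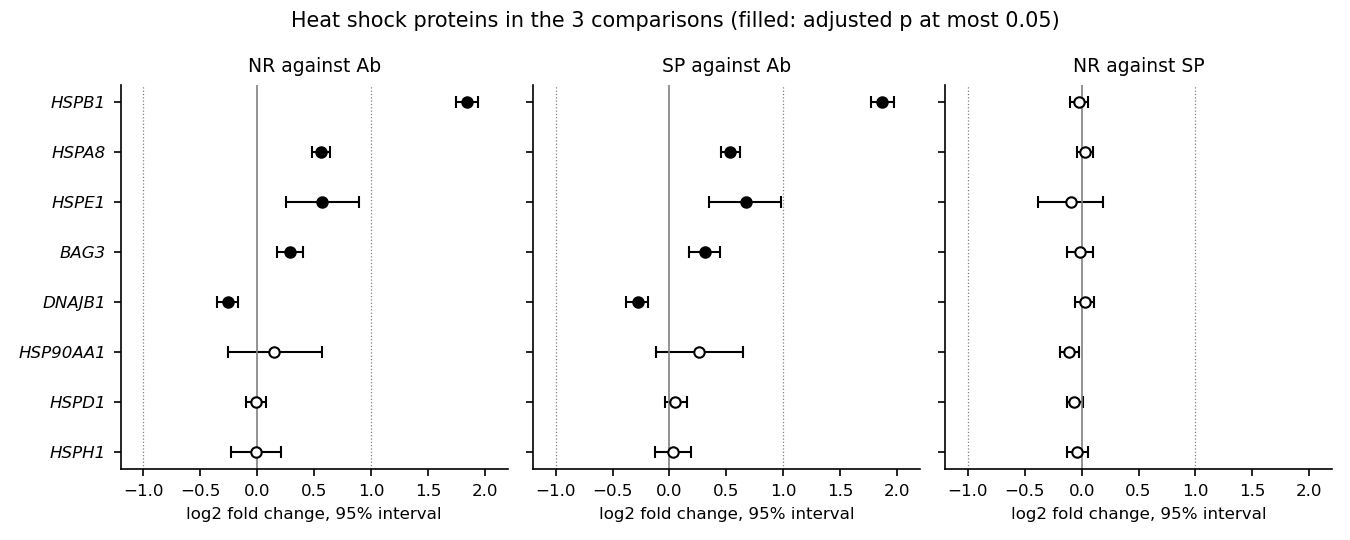
Log2 fold changes with 95% intervals (x axis) of the 8 heat shock proteins tested, in NR against Ab, SP against Ab and NR against SP, with points filled where the adjusted p is 0.05 or less and dotted lines at 2-fold. HSPB1 alone lies beyond 2-fold, at 1.84 and 1.87, and no point is filled in NR against SP.

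Nanorods were set against nanospheres to ask whether the shape of the carrier mattered at this antibody dose. In edgeR none of the 8 heat shock proteins passed (0 of 8; 1 at an unadjusted p under 0.05), and DESeq2 gave 0 of the 7 for which it returned an adjusted p. Of all 14903 genes 0.443% passed in edgeR and 12.9% had an unadjusted p under 0.05, and DESeq2 called 1.85% of those it gave an adjusted p. HSP90AA1 had the smallest p, with a level in NR of 0.929 times that in SP (95% interval 0.877 to 0.985, log2 fold change -0.11, SE 0.041, edgeR adjusted p = 0.254). Without NR replicate 1, the highest of the NR libraries for this gene, it was lower in NR by a log2 fold change of -0.16 and passed with an edgeR adjusted p of 0.0414. It did not pass in any of the other 13 alternatives. Over all 14 the log2 fold change ran from -0.16 to -0.069, and the edgeR adjusted p was 0.566 without NR replicate 3 and 0.565 without SP replicate 1.

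A p that misses the threshold does not show equal levels, and the intervals bound what these libraries allow. For NR as a multiple of SP they were 0.932 to 1.04 for HSPB1, 0.972 to 1.07 for HSPA8 and 0.963 to 1.08 for DNAJB1. They were 0.914 to 1.07 for BAG3, 0.912 to 1.01 for HSPD1 and 0.916 to 1.04 for HSPH1. HSPE1, with the fewest counts, had the widest, 0.767 to 1.14. For HSPB1 and HSPA8 these bounds lie well inside the change that either nanoparticle group showed against Ab.

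Levels can be compared between genes only per length, as CPM per kb of annotated exon sequence. On this scale the order of the mean levels in NR was HSPA8 (322 ± 3.25), HSPB1 (243 ± 6.92), HSP90AA1 (204 ± 12.6), HSPD1 (109 ± 1.48), DNAJB1 (28.6 ± 1), BAG3 (24 ± 0.476), HSPH1 (19.3 ± 1.04) and HSPE1 (3.42 ± 0.206; SD, n = 3). No neighbours in this order came within their spread between libraries of each other in NR. The length counts all annotated exon bases of a gene, from 1623 for HSPB1 to 8391 for HSPH1. Another choice of length could change the order, and this was not tested. In Ab the order differed: HSPA8 (219 ± 1.65) and HSP90AA1 (184 ± 31.4) led, followed by HSPD1 (110 ± 7.6), HSPB1 (67.9 ± 1.21), DNAJB1 (34.4 ± 1.09), BAG3 (19.7 ± 0.474), HSPH1 (19.5 ± 2.48) and HSPE1 (2.33 ± 0.314). HSPB1 was thus the second in NR but below HSPD1 in Ab, and BAG3 and HSPH1 could not be separated in Ab. Without Ab replicate 1, HSP90AA1 was at 204 and 201 CPM per kb in Ab and kept its place, and HSPH1, at 21.2 and 20.7, was above BAG3. SP gave the NR order, with HSPA8 at 315, HSPB1 at 247 and HSP90AA1 at 220 CPM per kb.

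HSPD1 and HSPE1, whose products work together and whose genes lie head to head, were read at very different levels per length, 109 against 3.42 CPM per kb in NR. Since reads of HSPE1 and of its pseudogenes may not have been told apart, this gap is not a measure of their relative amounts.

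Of 9535 genes with a mean of at least 10 CPM, those most like DNAJB1 over the 9 libraries were VASH1, ZNF207 and DDX39A (r of 0.9950, 0.9914 and 0.9890), and those most like HSPD1 were QSER1, CTR9 and CPD (0.9440, 0.9250 and 0.9125). These r values are descriptions with no test: the libraries fall into a nanoparticle and an Ab cluster, which DNAJB1 follows, and for HSPD1 Ab replicate 1 is the lowest point.

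HSPA1A (ENSG00000204389, chr6:31783320-31785723, plus strand) and HSPA1B (ENSG00000204388, chr6:31795515-31798031, plus strand) are the classical inducible HSP70 genes, and these data give no usable level for either. HSPA1A had 0, 1 and 0 counts in the NR libraries, 5, 1 and 1 in those of SP and 0, 2 and 1 in those of Ab, and HSPA1B had at most 1 count in any library. Low counts were common around them. Within 1000000 bases on each side, 76 of 97 protein-coding genes (78.4%) had at most 10 counts in every library, compared with 7251 of 19953 (36.3%) over the genome.

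Genes that nearly every cell uses were among them. LSM2, which takes part in RNA splicing and decay, and NEU1, a lysosomal enzyme, were listed at 0 in all 9 libraries, as was the neighbouring HSPA1L. SNHG32, which is not among the protein-coding genes counted above, was also at 0. On the same chromosome arm, TUBB, a main beta-tubulin, had 1 to 7 counts and the ribosomal protein gene RPS18 1 to 6, whereas RPS19 on chromosome 19 had 7440 to 16406 and ACTB on chromosome 7 had 58123 to 110338. Not every gene of the window was low: 21 exceeded 10 counts, among them PRRC2A with 186 to 337. The low counts of HSPA1A and HSPA1B lie in a stretch where most genes are low, and no direction, fold or absence of induction is read from them. Why this stretch is low was not tested. The neighbours were chosen after their values were seen.

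**Figure D4:**
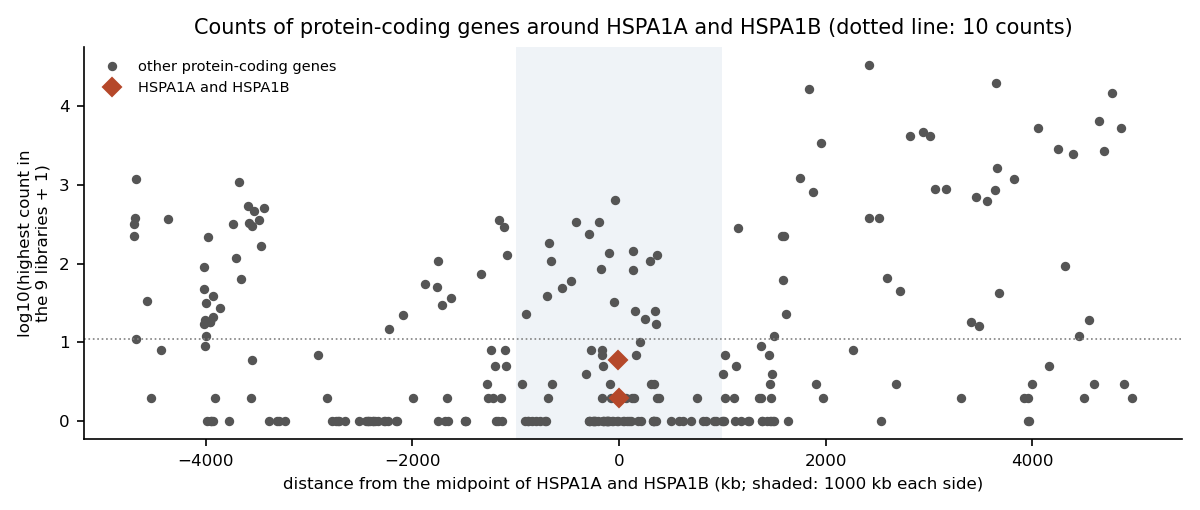
For each protein-coding gene near HSPA1A and HSPA1B, the log10 of the highest count in the 9 libraries plus 1 (y axis) against the distance from their midpoint in kb (x axis), with a dotted line at 10 counts and 1000000 bases on each side shaded. In the shaded window 76 of 97 genes lie at or under the line, HSPA1A and HSPA1B among them.

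The heat shock factors that act on these promoters were read as well. Of 7 genes in the list, counting the factor's binding protein HSBP1, 4 were tested, 1 higher and 2 lower in NR against Ab and 1 higher and 3 lower in SP against Ab. Passing genes made up 72.7% and 73% of all genes in these comparisons, so 3 or 4 of 4 is near the background. HSF1, the main stress-responsive factor, was lower, at 118 CPM in NR, 120.8 CPM in SP and 173.3 CPM in Ab, with log2 fold changes of -0.55 (SE 0.051, edgeR adjusted p = 9.68e-11) and -0.51 (SE 0.051; adjusted p = 6.29e-10). HSF2 was at 24.87, 21.84 and 26.49 CPM and passed only in SP against Ab, at -0.27 (edgeR adjusted p = 0.00431). Whether its change differs between nanoparticles can be read from NR against SP, where it did not pass (edgeR adjusted p = 0.303). HSF4 had the largest difference of the list, with 8.21, 6.917 and 18.47 CPM and log2 fold changes of -1.15 and -1.41; 27.1% of its exon bases overlap another gene ID, which had 0 counts. HSBP1, which binds and restrains HSF1, was higher, at 159.4, 157.8 and 117.9 CPM (log2 fold changes of 0.44 and 0.43).

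Other genes of the heat shock response moved in both directions. In NR against Ab, 10 of 20 tested were higher and 6 lower, and in SP against Ab 10 of 21 were higher and 5 lower, with medians of 0.082 and 0.085 on the log2 scale beside -0.0055 and -0.0067 over all genes. Of all genes 36.4% were higher in each comparison, 36.4% lower in NR and 36.6% lower in SP, and these shares are the background for each list below. SERPINH1, the collagen chaperone HSP47, rose by log2 fold changes of 0.94 in NR and 1.07 in SP, and HSPA4L, an HSP110 relative, by 0.95 and 1.01. ZFAND2A, a stress-induced partner of the proteasome, fell by 1.02 and 0.96 on the log2 scale. It shares 9.16% of its exon bases with an antisense transcript.

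Of 9 other small heat shock proteins, the family of HSPB1, 3 had enough counts. A member with too few is not thereby unchanged. HSPB7 and HSPB8 rose in both comparisons, where 36.4% of all genes did. CRYAB passed the filter on counts only through the nanoparticle libraries, so its rise is not set against that share. It is also among the higher genes of the heat shock response above. HSPB8, a partner of BAG3, was at 66.82 CPM in NR, 71.4 CPM in SP and 38.25 CPM in Ab, with log2 fold changes of 0.81 (SE 0.058) and 0.91 (SE 0.063). HSPB7 was at 9.492, 9.802 and 3.163 CPM, with log2 fold changes of 1.58 and 1.65. CRYAB (alpha-B crystallin) had 28, 11 and 21 counts in the NR libraries and 22, 41 and 16 in those of SP but 1, 1 and 0 in those of Ab, for which no fold is given.

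Among other cytosolic HSP70 proteins and exchange factors, 7 of 15 tested were higher and 3 lower in NR against Ab, and 6 of 16 higher and 4 lower in SP against Ab, where 36.4% of all genes were higher and 36.4% and 36.6% lower. HSPA2, an HSP70 best known from the testis, was at 9.829, 10.98 and 12.23 CPM in NR, 9.434, 8.797 and 11.46 CPM in SP and 1.197, 0.7673 and 1.018 CPM in Ab. Its log2 fold changes of 3.48 (SE 0.19, edgeR adjusted p = 8.11e-16) and 3.34 (SE 0.19; adjusted p = 6.34e-15) exceeded those of HSPB1, at a far lower level. HSPA13, an HSP70 of microsomes, is counted among the lower genes of this list although it is not cytosolic. It was at 47.18, 47.75 and 129.7 CPM in NR, SP and Ab (log2 fold changes of -1.46 and -1.43).

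Most J-domain proteins that passed were lower, as DNAJB1 was. In NR against Ab 12 of 23 were lower and 5 higher, and in SP against Ab 11 of 23 were lower and 5 higher, with medians of -0.16 and -0.12 on the log2 scale. Among all genes 36.4% were lower in NR and 36.6% in SP. DNAJB2 was at 35.06 CPM in NR, 34.18 CPM in SP and 112 CPM in Ab (log2 fold changes of -1.68 and -1.70). DNAJB6 fell by 0.74 and 0.87 on the log2 scale. DNAJC9, a histone chaperone, fell by 0.79 and 1.01, but 56.5% of its exon bases overlap FAM149B1 on the other strand, and whether the counting used strand was not stated.

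The partners of HSP90AA1 included genes of both directions. Of 19 genes tested in the list of HSP90 and its cochaperones, 10 were higher and 8 lower in NR against Ab, and 10 were higher and 6 lower in SP against Ab, with all genes split evenly at 36.4% and 36.4% in NR and 36.4% and 36.6% in SP. FKBP5, a cochaperone of steroid receptors, was at 45.43, 48.47 and 20.26 CPM in NR, SP and Ab (log2 fold changes of 1.17 and 1.27). UNC45A, a chaperone of myosin, rose too (0.75 and 0.76). HSP90AB1, the constitutive sister of HSP90AA1, was at 1850, 1939 and 1742 CPM, with log2 fold changes of 0.091 (edgeR adjusted p = 0.0314) and 0.16 (adjusted p = 0.000934). Reads that fit both HSP90 genes may have been split between them.

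Of 19 other mitochondrial chaperones and proteases, the setting of HSPD1 and HSPE1, 11 were lower and 4 higher in NR against Ab, and 13 were lower and 4 higher in SP against Ab, with medians of -0.17 and -0.27, beside 36.4% and 36.6% of all genes lower. GRPEL2, an exchange factor of mitochondrial HSP70, had log2 fold changes of -1.73 and -1.67, LONP1, a protease of the matrix, -1.18 and -1.08, and TIMM44, which holds HSP70 at the import channel, -1.12 and -1.10. HSPD1 did not pass in either comparison with all libraries, and its intervals were -0.10 to 0.08 in NR and -0.042 to 0.15 in SP on this scale.

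In the cytosolic chaperonin and prefoldin, 4 of 14 were higher and 4 lower in each comparison with Ab, below the 36.4% of all genes in either direction, and the medians were 0.029 and -0.003. Subunits of one complex moved apart, CCT3 rising by log2 fold changes of 0.79 and 0.78 and CCT2 falling by 0.36 and 0.38. PFDN2, of prefoldin, fell by 0.99 in both.

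The paralogues of the endoplasmic reticulum, which answer to unfolded proteins in that compartment and not to heat shock factor 1, had the lowest medians of these lists. In both comparisons 9 of 10 were lower and 1 higher, with medians of -0.67 and -0.68, beside 36.4% and 36.6% of all genes lower. HSPA5, the HSP70 of the endoplasmic reticulum, was at 1075 CPM in NR, 1117 CPM in SP and 2672 CPM in Ab (log2 fold changes of -1.31, SE 0.038, and -1.25, SE 0.045). HSP90B1 was at 916.2, 963.1 and 1393 CPM (-0.60 and -0.52), HYOU1 had -1.15 and -1.04, and DNAJB9 -1.67 and -1.78. Thus HSPA8 and HSPA5, relatives in different compartments, were higher and lower in the same libraries. Some genes stand in more than one list.

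Leaving out Ab replicate 1 moved the counts of these lists little, and some medians more. In NR against Ab the other heat shock response genes had 8 lower in place of 6, the other HSP70 proteins and exchange factors 4 lower in place of 3, and HSP90 and its cochaperones 9 higher in place of 10. In SP against Ab the J-domain proteins had 6 higher and 12 lower, and HSP90 and its cochaperones 7 lower in place of 6. Every other count of these lists stayed the same. The chaperonin and prefoldin medians became -0.021 in NR, a change of sign, and -0.053 in SP. The median of the other HSP70 proteins and exchange factors went from 0.046 to 0.10 in SP against Ab. That of the J-domain proteins became -0.23 in NR, and those of the endoplasmic reticulum paralogues -0.74 and -0.78.

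**Figure D5:**
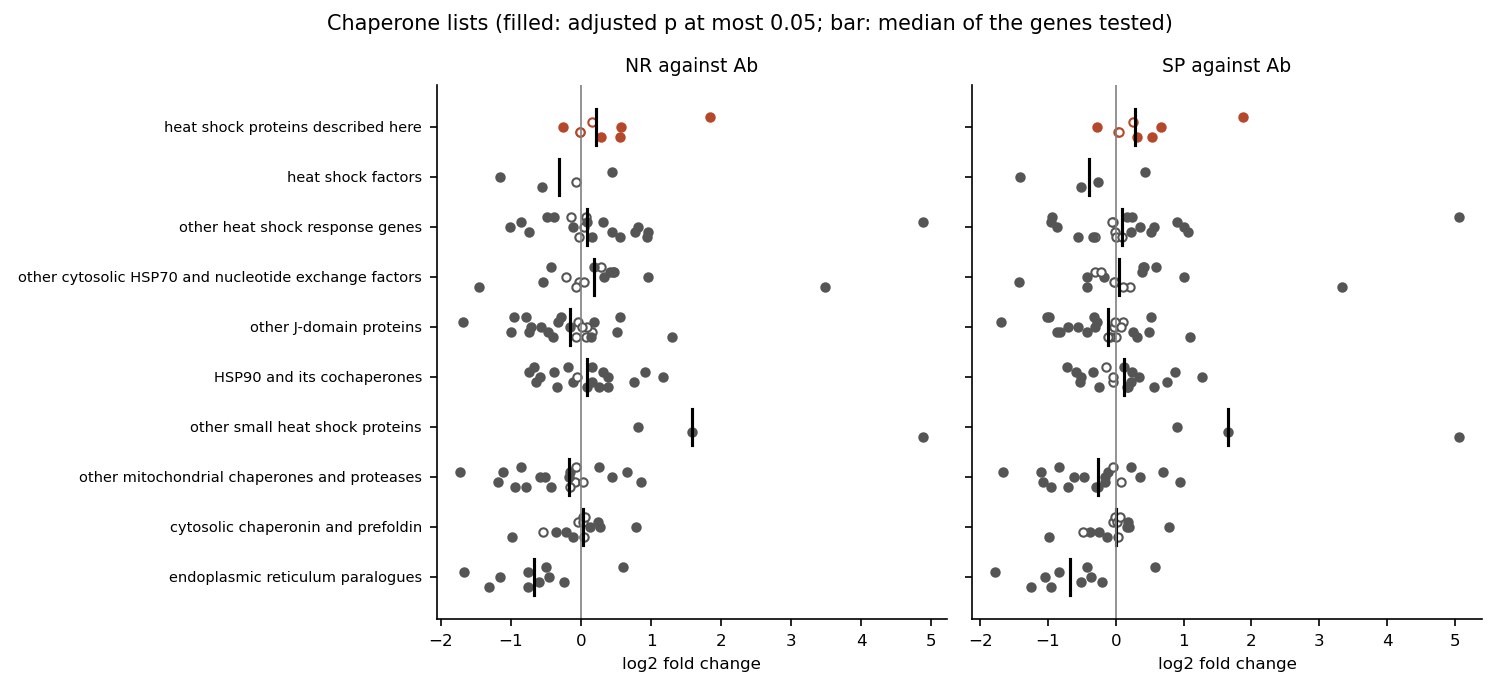
Log2 fold changes against Ab (x axis) of the genes tested in each chaperone list, for NR and SP, with the heat shock proteins described here in red, points filled where the adjusted p is 0.05 or less and a bar at each median. In NR against Ab the median of the endoplasmic reticulum paralogues is -0.67. That of the small heat shock proteins, 1.58, is over 3 genes, and 1 of them is CRYAB, the rightmost point. CRYAB passed the filter on counts only through the nanoparticle libraries, and its fitted value depends on its 0 to 1 counts in Ab.

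Between the nanoparticles, none of the 114 genes tested in these lists passed in edgeR, with 17 at an unadjusted p under 0.05, where 12.9% of all genes were. DESeq2 called 2 of the 84 for which it gave an adjusted p, SERPINH1 and DNAJC9, beside 1.85% of all genes.

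Other measures moved with the groups in the same libraries. Of the epithelial markers given above, 6 of 8 tested rose and none fell in each comparison with Ab, where 36.4% of all genes were higher. Without Ab replicate 1 this was 7 of 8, where 72.1% and 71.9% of all genes passed in either direction. CDH1, among those that rose, had 5, 5 and 9 counts in Ab. It passed the filter on counts only through the nanoparticle libraries, so its rise is not set against that share. Beside these, 11 markers of leukocytes, fibroblasts and endothelium had an ID. DCN, PDGFRB, VWF and CDH5 were among those that rose in each comparison, while CD14 fell in NR against Ab, though not without Ab replicate 1. DCN, PDGFRB and VWF likewise passed the filter only through the nanoparticle libraries. DCN, a proteoglycan of fibroblasts, was at 19.85 CPM in NR, 21.07 CPM in SP and 0.5378 CPM in Ab. On the same list, PTPRC, CD3E and CD68, which define leukocytes, had at most 3 counts in any library. Other gene IDs share 85.6% of the exon bases of CD68, so its count may not show its level. The most abundant was COL1A1, a fibroblast collagen, at 14.2 to 41.5 CPM, and the list summed to 91.41 to 97.55 CPM in NR, 94.25 to 104.5 CPM in SP and 21.76 to 40.5 CPM in Ab. The share of counts from mitochondrially encoded genes was 4.36% to 4.59% in libraries of NR, 4.40% to 4.66% in those of SP and 3.41% to 3.71% in those of Ab. The part of these in the changes of the heat shock proteins was not tested. No sequencing batch is given in the sources used here.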

How the data were processed

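Poly-A libraries were sequenced in pairs. The authors discarded reads with adapter, undetermined bases or low quality, aligned the others with HISAT2 2.1.0 and deposited whole read counts per Ensembl gene, not scaled between libraries, of which 13863155 to 26318227 fell in a library. The reporting summary names hg19, the submitters' processing notes name mm9 and the IDs are human. The counter is named in more than one way, and the annotation release, the use of strand and the handling of multiply mapped reads were not given in the sources used here.

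Of 60880 IDs, 59858 (version suffixes removed) were found in GENCODE release 44 on GRCh37, which gave names, exon lengths and positions, and the other 1022 took no more than 0.115% of any library's counts. Each pair of groups was tested on 6 libraries alone in R 4.3.3 with edgeR 4.0.16 (TMM, filterByExpr with a minimum count of 10 and total of 15, robust quasi-likelihood test, Benjamini-Hochberg over all genes), a gene passing at an adjusted p of at most 0.05. The steps were tested on simulated data. The study's tool, DESeq2 1.16.1, was replaced by DESeq2 1.42.0 as an alternative. Other alternatives were RLE scaling, 2 other filters, a 2-fold minimum, a test against 1.5-fold, a fit of all 9 libraries, a block for the replicate number, HSPA1A and HSPA1B summed and each library left out.

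Of 160 list genes 158 had an ID. Beside the 10 genes, HSF1, HSF2, HSBP1, HSPA5 and HSP90B1, the text names in each list the genes past the adjusted p and 2-fold whose higher group averaged at least 100 counts, or where there were fewer than 3 those with the 3 smallest p in NR against Ab, and the 3 genes most correlated with DNAJB1 and with HSPD1. HSP90AB1, neighbours of HSPA1A and single markers were named after their values were seen. Some genes that the rule names are not reported here. The genes and lists were chosen with earlier results of these data known. Tables and figures were made in Python 3.11.15 (matplotlib 3.10.9, pandas 2.3.3, numpy 2.4.6).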

Additional observations from a re-analysis of the deposited data

How the results depend on the processing

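HSPB1, HSPA8, HSPE1, BAG3 and DNAJB1 kept their direction against Ab under every alternative run, and passed in all of them except that HSPB1 was the only one past a test against a 1.5-fold threshold or past the 2-fold minimum. Each of these gave 1 member in NR against Ab and 1 in SP against Ab in place of 5. Of all genes, 4676 of 15009 in NR against Ab and 4696 of 15068 in SP against Ab passed the 1.5-fold test. The 2-fold minimum was met by 22.7% and 23.2% of all genes. With the replicate number as a block the counts were 5, 5 and 0, and HSPB1 was at 1.84 in NR against Ab. Of all genes, 10630 of 15009, 10970 of 15068 and 51 of 14903 passed with the block. The numbers do not pair the libraries (same-number r of -0.0317 to 0.0279), and the block changed no member's call. Log2 fold changes over the alternatives ran from 1.81 to 1.86 for HSPB1 and from -0.30 to -0.24 for DNAJB1 in NR against Ab. Leaving out libraries gave 5 to 7 members in NR against Ab, 5 to 6 in SP against Ab and 0 to 1 in NR against SP, the upper values without Ab replicate 1, Ab replicate 1 and NR replicate 1. In the fits with these upper values, 11137 of 15441, 11153 of 15503 and 144 of 15153 genes passed. Over all libraries left out, 10441 to 11137 genes passed in NR against Ab and 10516 to 11153 in SP against Ab. Reversals were all of values near 0. In NR against Ab, HSPH1 was at 0.025 without NR replicate 3, 0.054 without Ab replicate 2 and 0.029 without Ab replicate 3, and HSPD1 at 0.021 and 0.0074 without Ab replicates 2 and 3, within ranges of -0.11 to 0.054 and -0.072 to 0.021 over the libraries left out. In SP against Ab without Ab replicate 1, HSPH1 was at -0.074 and HSPD1 at -0.0074, the lower ends of ranges reaching 0.091 and 0.083. In NR against SP, HSPH1 was at 0.00079 without NR replicate 3, DNAJB1 at -0.003 without NR replicate 1 and -0.0013 without SP replicate 1, and without the latter HSPB1 was at 0.00051 and BAG3 at 0.055. The ranges were -0.079 to 0.00079 for HSPH1, -0.003 to 0.052 for DNAJB1, -0.051 to 0.00051 for HSPB1 and -0.051 to 0.055 for BAG3. The cause was not tested. HSPA1A and HSPA1B summed stayed under the filter and gave no value. Few counts limit the precision of HSPE1, and HSPA1A and HSPA1B have too few for any value. The count of all genes past the adjusted p in NR against SP was 66 in edgeR and 116 in DESeq2, 328 with no filter beyond 1 count, 0 against a 1.5-fold threshold and 10 to 188 with a library left out.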
